A study of Mus musculus with 2 samples.

Results

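Genes of the thick filament and of the M-band, the protein mesh that crosslinks thick filaments at the centre of the sarcomere, were followed in total RNA-seq of a calf muscle, the gastrocnemius. The mice were B6CASTF1/J females, 4 days old. The 9 genes were chosen by name, as the myosin binding protein C genes Mybpc1, Mybpc2 and Mybpc3, their short relatives Mybph and Mybphl, the myomesin genes Myom1, Myom2 and Myom3, and Obsl1, and all 9 were found among the 55536 Ensembl genes of the tables, each as 1 entry. The animals are first-generation hybrids of C57BL/6J and CAST/EiJ mice, untreated as far as the labels say, and all belong to 1 group of 2 libraries made from 300 ng of RNA each, with spike-ins meant for stranded libraries depleted of ribosomal RNA. The depth over Ensembl genes was 30745756 expected counts (replicate 1) and 35977559 expected counts (replicate 2). Expected counts are estimated reads per gene, and TPM is an abundance scaled for transcript length and depth. Averages are given ± SD (n = 2 libraries). The design held no contrast between conditions, and 2 values against 2 cannot give an exact two-sided permutation p below 0.333. The spread between the libraries is therefore the measure of error. Both libraries carry 1 donor record, so this spread may not cover differences between animals.

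Myosin binding protein C lies in stripes along the thick filament, where it holds myosin and titin and tunes how myosin heads reach actin. Its slow skeletal form is encoded by Mybpc1, its fast skeletal form by Mybpc2 and its cardiac form by Mybpc3. Myomesins bridge thick filaments and titin at the M-band, and the protein of Obsl1 attaches there to titin and myomesin. The genes are known to be switched and spliced by fibre type and stage of development.

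Most of the genes were expressed, while the cardiac and atrial members were close to absent. At the detection level of 1 TPM in both libraries, 7 of the 9 genes were detected, against 54.8% of the 22028 protein-coding genes. Mybpc1 was highest at 899 ± 31.8 TPM, above 99.7% of the 12064 detected protein-coding genes. Myom1 followed at 337 ± 29.6 TPM, Myom2 at 227 ± 22.4 TPM, Mybpc2 at 194 ± 26.5 TPM, Obsl1 at 80.1 ± 2.38 TPM, Myom3 at 43.6 ± 0.728 TPM and Mybph at 30.5 ± 1.19 TPM. The median of the 9 genes was 80.1 TPM, beside 9.91 TPM for detected protein-coding genes. Of the neighbours in this order, Myom2 and Mybpc2 were the 1 pair whose values overlapped across libraries. Myom2 had 211 TPM in replicate 1 and Mybpc2 213 TPM in replicate 2. Within each library Myom2 was the higher, 1.20-fold in replicate 1 and 1.14-fold in replicate 2. In bulk tissue, fewer cells of a type and less RNA per cell cannot be told apart.

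**Figure D1:**
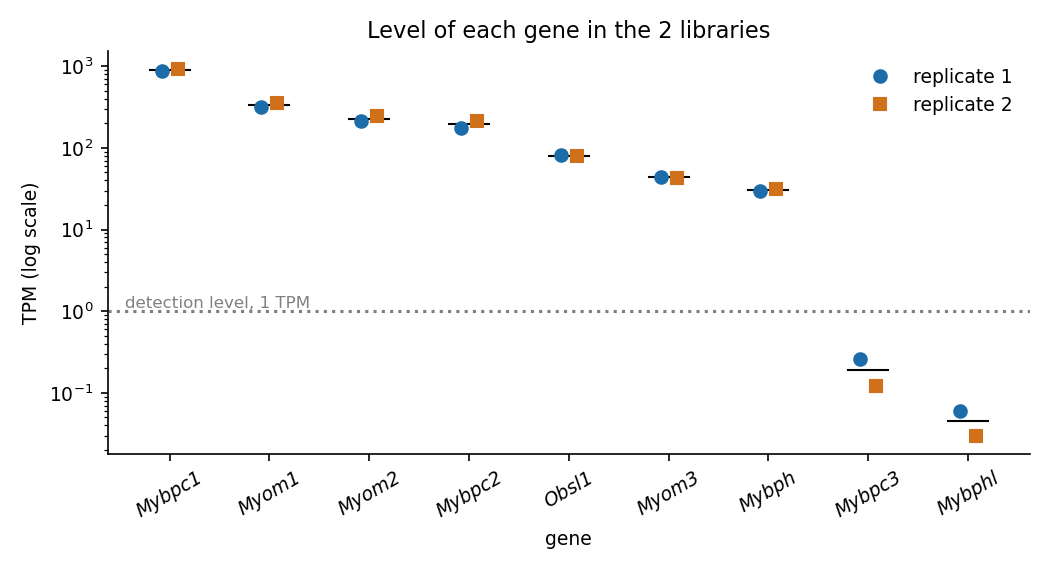
Level of each of the 9 genes in TPM on a log axis, with replicate 1 as circles, replicate 2 as squares, the mean as a bar and the detection level of 1 TPM as a dotted line. The 7 detected genes lie between 29.7 and 922 TPM, while Mybpc3 and Mybphl stay at 0.26 TPM and lower.

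Mybpc1, named for the slow skeletal form, provided most of the myosin binding protein C transcripts. Mybpc1 (chromosome 10, 88518279 to 88605152, build mm10) had 877 TPM and 70976 counts in replicate 1 and 922 TPM and 85307 counts in replicate 2. Mybpc2 (chromosome 7, 44501699 to 44524656), the fast form, had 175 TPM and 17245 counts in replicate 1 and 213 TPM and 23752 counts in replicate 2. The groups of values lay far apart. Mybpc1 took 82.3% ± 1.47 of the TPM of the 3 genes and Mybpc2 17.7% ± 1.48. The level of Mybpc1 was 4.999-fold that of Mybpc2 in replicate 1 and 4.33-fold in replicate 2. With protein-coding transcripts alone the ratio was 4.05 in replicate 1 and 3.51 in replicate 2. The name of the gene does not give the fibre type, which was not tested. Among the myosin heavy chain genes of the same libraries, the fast Myh4, Myh1 and Myh2 averaged 610, 258 and 90.8 TPM. The slow Myh7 averaged 206 TPM.

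The cardiac form was at the edge of detection. Mybpc3 (chromosome 2, 91118144 to 91136516) had 30 counts and 0.26 TPM in replicate 1 and 15 counts and 0.12 TPM in replicate 2. Its share of the counts of the 3 genes was 0.034% in replicate 1 (exact Clopper-Pearson 95% interval 0.0229% to 0.0485%) and 0.0138% in replicate 2 (0.0077% to 0.0227%), with intervals that cover counting error only. Other genes of heart muscle were set beside it. The natriuretic peptide genes Nppa and Nppb had 0 counts in both libraries, which allows up to 3 counts in each. The atrial light chain gene Myl7 had 0 and 2 counts and the cardiac troponin I gene Tnni3 15 and 13 counts in replicates 1 and 2. Of the 8 heart markers, 3 were detected, namely Myh6 (48.6 ± 7.76 TPM), Tnnt2 (68.1 ± 1.32 TPM) and Sln (89.3 ± 2.52 TPM). Developing skeletal muscle is also known to express these 3 genes, and their source here was not tested. The summed level of the 8 heart markers was 212 TPM in replicate 1 and 202 TPM in replicate 2.

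Mybpc1 was spread over several splice forms, and the sequences that separate them are short. Of its 6 annotated transcripts, 2 span the whole gene, Mybpc1-202 and Mybpc1-201. Mybpc1-202 holds an exon of 42 bases, exon 3 of 29, which adds 14 codons near the start of the protein and which Mybpc1-201 skips. Mybpc1-201 holds instead an exon of 59 bases, exon 27 of 29, near the other end. Since 59 bases are not a whole number of codons, they shift the frame, and Mybpc1-201 reads 3 more coding bases before a TAG stop codon, while Mybpc1-202 ends at a TAA stop codon. Another stretch of 54 bases, or 18 codons, occurs in the fragment Mybpc1-206, which is annotated without either end of the protein. These exons are shown because they are coding stretches in which the forms differ. They are written 5′ to 3′ on the transcript strand (the minus strand of chromosome 10, build mm10), with the exon in capitals and 6 neighbouring transcript bases on each side in lower case, as read from the GENCODE M21 transcripts.
Mybpc1 42-base exon, 88582007 to 88582048: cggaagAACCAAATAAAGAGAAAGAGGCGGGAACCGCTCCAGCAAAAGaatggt
Mybpc1 59-base exon, 88521277 to 88521335: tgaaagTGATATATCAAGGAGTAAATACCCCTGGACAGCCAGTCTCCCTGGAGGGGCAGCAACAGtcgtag
Mybpc1 54-base exon, 88537466 to 88537519: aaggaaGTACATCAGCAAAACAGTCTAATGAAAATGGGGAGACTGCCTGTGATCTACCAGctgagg

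The form with the 42-base exon prevailed. Mybpc1-202 had 459 and 475 TPM in replicates 1 and 2, and Mybpc1-201 had 137 and 159 TPM. Transcripts that hold the 42-base exon therefore took 76.0% ± 1.43 of the TPM of transcripts that hold or skip it, and 78.8% ± 0.154 in the other deposited quantification. The 59-base exon was held by 22.8% ± 1.69, or 20.7% ± 0.00520 in the other quantification. Because the annotation joins the 42-base exon to 1 transcript and the 59-base exon to the other, the choices at both ends of the gene cannot be told apart in these tables. Mybpc1-202 and Mybpc1-201 also differ in their untranslated ends, with a first exon of 252 against 125 bases and last exons of unlike length. These shares are shares of whole transcripts and do not rest on the shown exons alone. The 54-base exon took 11.7% ± 0.404, or 16.3% ± 0.0877 in the other quantification. The main tables also gave 11.7% ± 0.982 of the gene TPM to the short retained-intron transcript Mybpc1-203 and 7.28% ± 1.01 to Mybpc1-204, against 0.860% and 0.274% in the other quantification.

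**Figure D2:**
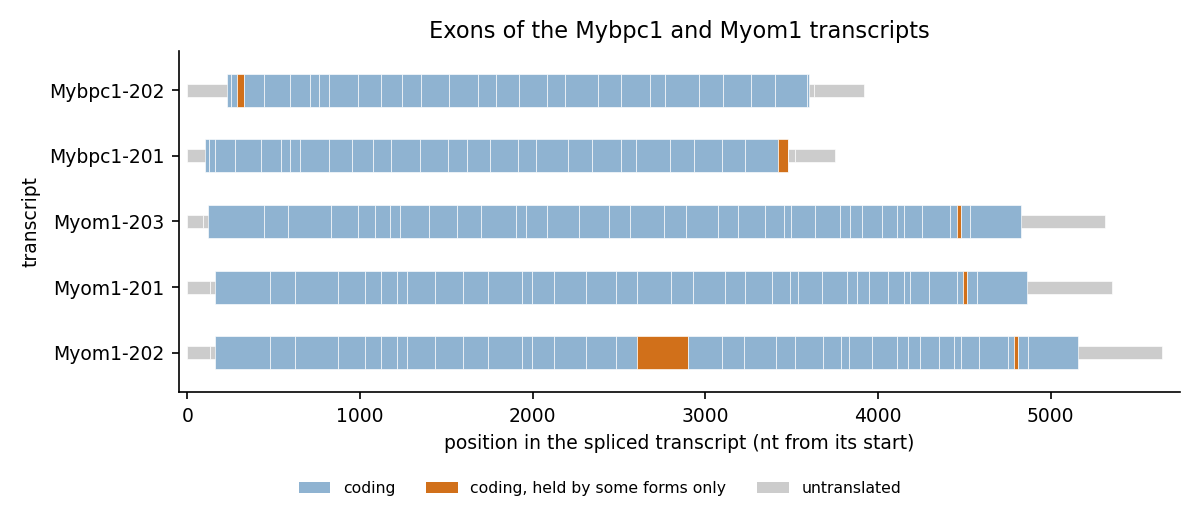
Exons of 5 spliced transcripts drawn to scale along the transcript in nucleotides, with coding bases as tall blocks, untranslated bases as thin grey blocks and the alternative coding exons in orange. Mybpc1-202 and Mybpc1-201 differ near opposite ends, and Myom1-202 carries the 294-base EH exon that Myom1-203 and Myom1-201 skip.

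Of the short relatives, only Mybph was detected. Mybph (chromosome 1, 134193448 to 134201232) encodes H protein, a small thick filament protein of skeletal muscle, and Mybphl (chromosome 3, 108364911 to 108380057) a relative known from the cardiac atria. Mybph had 29.7 TPM and 1463 counts in replicate 1 and 31.4 TPM and 1738 counts in replicate 2. Mybphl had 2 counts in replicate 1 and 1 count in replicate 2, too few to set a level. Mybph took 99.85% ± 0.0751 of the TPM of the pair, where the SD rests on these few Mybphl counts. The exact 95% interval of the Mybph share of counts was 99.51% to 99.98% in replicate 1 and 99.68% to 99.999% in replicate 2, for counting error only. Its main transcript Mybph-201 held 95.2% ± 2.30 of the gene TPM.

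Myom1 and Myom2 led the myomesin genes and Myom3 was far lower. Myom1 (chromosome 17, 71002633 to 71126856) encodes myomesin, the form found in all striated muscle, Myom2 (chromosome 8, 15057653 to 15133541) encodes M-protein, known from fast fibres and heart, and Myom3 (chromosome 4, 135759715 to 135815564) a form known from slow and intermediate fibres. Myom1 had 316 TPM and 33646 counts in replicate 1 and 358 TPM and 43011 counts in replicate 2. Myom2 had 211 TPM and 27017 counts in replicate 1 and 243 TPM and 35416 counts in replicate 2. By gene TPM, Myom1 was above Myom2 in both libraries without overlap, and both were higher in replicate 2. Myom3 had 44.1 TPM and 6061 counts in replicate 1 and 43.1 TPM and 6716 counts in replicate 2. The shares of myomesin TPM were 55.4% ± 0.197 for Myom1, 37.4% ± 0.532 for Myom2 and 7.21% ± 0.729 for Myom3. The level of Myom1 was 1.49-fold and 1.47-fold that of Myom2 in replicates 1 and 2, but 1.12-fold and 1.08-fold with protein-coding transcripts alone. The protein-coding transcripts had 208 and 236 TPM for Myom1 and 186 and 217 TPM for Myom2 in replicates 1 and 2, so that the libraries of the genes overlapped. A short noncoding transcript of the 3′ end of the gene, Myom1-208, took 31.1% ± 0.888 of Myom1 TPM in the main tables and 3.53% ± 1.27 in the other quantification. The level of Myom2 was 4.79-fold and 5.64-fold that of Myom3 in replicates 1 and 2.

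**Figure D3:**
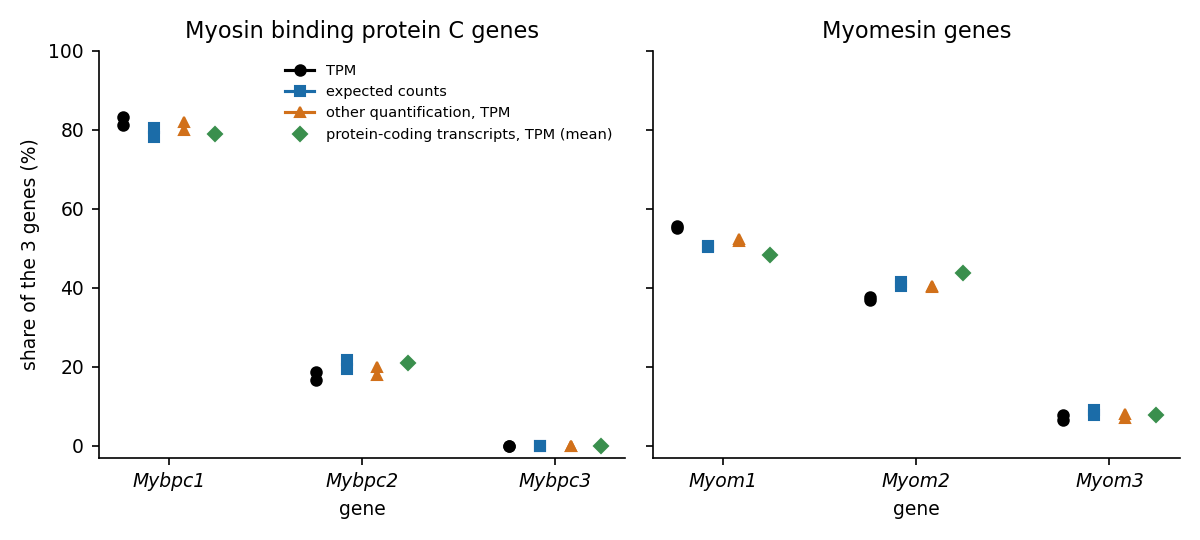
Share of each myosin binding protein C gene and each myomesin gene, in percent of its 3 genes, by TPM, by expected counts, in the other quantification (a marker per library) and by TPM of protein-coding transcripts alone (mean). Among the markers shown, Mybpc1 stays between 78.2% and 83.3%, and Myom1 stays above Myom2 in each of the units.

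The EH form of Myom1 was a minor form. The EH segment is a stretch in the middle of myomesin, named for the embryonic heart, whose splice form carries it. Its exon was identified by a rule, as the Myom1 exon skipped by some protein-coding transcripts that adds the longest in-frame coding stretch. That is exon 18 of 38 of Myom1-202, with 294 bases or 98 codons. Of its bases, 57.1% are G or C. It is shown because this exon defines the EH form. It is written 5′ to 3′ on the plus strand of chromosome 17, build mm10, with the exon in capitals and 3 neighbouring transcript bases on each side in lower case, from the GENCODE M21 transcripts.
Myom1 EH exon, 71082203 to 71082496: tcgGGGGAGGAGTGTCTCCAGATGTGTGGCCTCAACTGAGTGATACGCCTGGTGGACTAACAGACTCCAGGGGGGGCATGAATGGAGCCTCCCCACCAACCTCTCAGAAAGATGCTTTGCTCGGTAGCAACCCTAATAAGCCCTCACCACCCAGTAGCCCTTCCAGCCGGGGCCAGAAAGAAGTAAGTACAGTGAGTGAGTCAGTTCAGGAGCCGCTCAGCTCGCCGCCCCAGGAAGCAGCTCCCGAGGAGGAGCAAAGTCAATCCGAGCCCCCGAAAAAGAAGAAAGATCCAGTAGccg

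Transcripts with the EH exon had 2.72 TPM in replicate 1 and 1.82 TPM in replicate 2, against 205 and 234 TPM for the protein-coding transcripts that skip it. The exon was held by 1.31% of them in replicate 1 and 0.773% in replicate 2. The mean was 1.04% ± 0.379, or 2.94% ± 1.09 in the other quantification. Counting also the noncoding transcripts that contain the exon, which include the retained-intron form Myom1-205, the share was 3.98% ± 1.31, or 5.59% ± 0.839 in the other quantification. The form without the segment was the main one in both libraries and both quantifications.

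Another choice in Myom1 lies near the end of the coding sequence, where the transcripts use one or the other of a pair of exons of 23 bases. Both exons leave the same 347 coding bases after them, and 6 of their 23 positions are identical. They are shown because the length is equal and the letters are not, with the exon in capitals and 6 neighbouring transcript bases on each side in lower case.
Myom1 upstream 23-base exon, 71120794 to 71120816: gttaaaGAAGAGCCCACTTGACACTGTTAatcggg
Myom1 downstream 23-base exon, 71121126 to 71121148: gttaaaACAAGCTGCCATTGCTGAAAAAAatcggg

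The downstream exon prevailed. Transcripts with the upstream exon took 8.76% ± 0.218 and those with the downstream exon 91.2% ± 0.218. In the other quantification they took 20.3% ± 0.990 and 79.7% ± 0.990. Counting also the noncoding Myom1-208, which holds the downstream exon, that exon took 94.1% ± 0.0937, or 80.5% ± 0.663 in the other quantification. Myom1-201 and Myom1-203 also differ in their untranslated first exon, of 131 against 92 bases, so these shares do not rest on the pair of exons alone. The main form Myom1-203, with the downstream exon and without the EH segment, held 59.4% ± 0.109 of the gene TPM, or 65.5% ± 0.619 in the other quantification. Myom1-209, which starts farther upstream, had 0.34 and 0.18 TPM in replicates 1 and 2, against 31.6 and 33.1 TPM in the other quantification. Its first exon overlaps the gene Myl12a, which shares 246 bases with Myom1 on the opposite strand and had 263 and 275 TPM in replicates 1 and 2. Whether reads were counted by strand is not stated in the labels or headers.

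**Figure D4:**
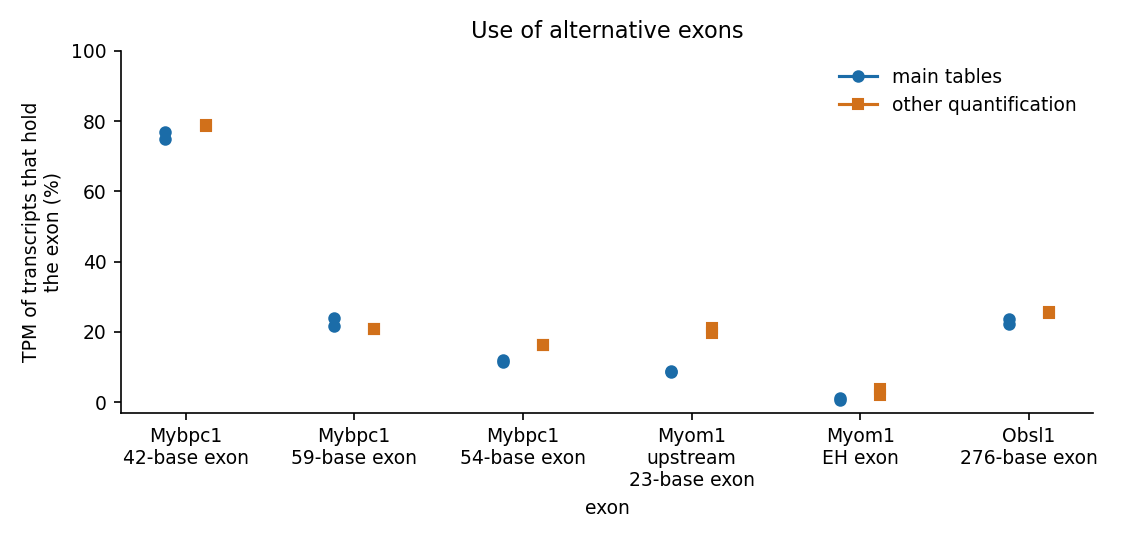
Share of transcript TPM with each alternative exon in percent, with circles for the main tables and squares for the other quantification, and a marker per library. The 42-base exon of Mybpc1 lies between 74.9% and 78.9%, and the EH exon of Myom1 between 0.773% and 3.71%.

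Myom2 and Myom3 have 1 annotated protein-coding transcript each, so no choice between coding forms could be seen. Myom2-201 held 88.8% ± 1.02 of the Myom2 TPM and Myom3-201 82.0% ± 0.432 of the Myom3 TPM. In the other quantification the shares were 92.4% ± 0.546 and 97.5% ± 2.46. The rest lay in retained-intron and other noncoding transcripts.

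Obsl1 had the largest noncoding part of the 9 genes. Obsl1 (chromosome 1, 75479310 to 75506452) encodes a cytoskeletal adaptor protein built of immunoglobulin-like domains, which works with Cul7 and Ccdc8 in a complex known from growth disorders. It had 81.8 TPM and 6361 counts in replicate 1 and 78.4 TPM and 7772 counts in replicate 2. Its protein-coding transcripts took 55.5% ± 4.72 of its TPM, or 63.4% ± 2.86 in the other quantification. The longest of them, Obsl1-202, took 29.8% ± 5.25. An exon of 276 bases (75492067 to 75492342), found in the fragment Obsl1-205, was held by 22.9% ± 0.885 of the protein-coding TPM around it. Cul7 reached 36.8 ± 3.39 TPM, Fbxw8, a ubiquitin ligase partner of Cul7, 23.9 ± 0.926 TPM and Ccdc8 11.7 ± 1.12 TPM, and all 3 were detected.

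The paralogs shared only short identical stretches. Coding sequences of Mybpc1 and Mybpc2 were identical at 62.6% of aligned bases, those of Myom1 and Myom2 at 62.6%, and those of Mybph and Mybphl at 73.96%. The longest identical run between Mybpc1 and Mybpc2 was 21 bases and that between Myom1 and Myom2 17 bases, while effective lengths in the main tables were 99 bases shorter than the transcripts. The gene counts of all 9 genes were whole numbers in both libraries.

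The 14 partners at the M-band reported here were detected, each of them in both libraries. Their median level was 55.1 TPM, from Ckm, the muscle creatine kinase that docks at the M-band (4448 ± 759 TPM), and titin (Ttn, 1805 ± 139 TPM) down to Lrrc39, a myosin-binding M-band protein (13.8 ± 1.195 TPM). Ank1, whose short muscle form sits in the sarcoplasmic reticulum, reached 169 ± 11.7 TPM, and Cmya5, a large muscle scaffold protein, 99.3 ± 10.8 TPM. The ubiquitin ligase genes of the M-band and thick filament, Trim54, Trim55 and Trim63, reached 51.2 ± 3.24, 30.9 ± 3.44 and 16.2 ± 3.44 TPM. Of the thick filament assembly chaperones all 5 were detected, among them the myosin chaperone Unc45b (44.4 ± 4.66 TPM) and its partner Smyd1 (59.045 ± 5.49 TPM).

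The difference between the libraries was set beside that of all genes. Where both libraries together averaged 100 counts or more, 7 of the 9 genes could be compared. Of these, 0 were over 2-fold apart, beside 0.710% of all 12256 genes, so this count is not particular to the 7 genes. The log2 ratio of replicate 2 over replicate 1 was 0.28 for Mybpc2, 0.21 for Myom2, 0.18 for Myom1, 0.11 for Obsl1, 0.09 for Mybpc1, 0.07 for Mybph and -0.03 for Myom3. The fast gene Mybpc2 stood highest and Myom3 lowest. The median was 0.11 for the 7 genes and 0.02 for all genes, whose 10th and 90th percentiles were -0.24 and 0.23. Scaling by the spike-ins shifted the all-gene median by -0.14. The ratio was then above 0 for Mybpc2 (0.14), Myom2 (0.07) and Myom1 (0.04) and was -0.03 for Obsl1, -0.05 for Mybpc1, -0.07 for Mybph and -0.17 for Myom3. With 1 library against 1 no p-value is given. Of all genes, 55.3% were higher in replicate 2, and 22.9% with spike-in scaling. The 14 M-band partners reported had a median log2 ratio of 0.22, with 13 of 14 genes, all but Fhl2, higher in replicate 2. With spike-in scaling their median was 0.07, with 10 of 14 higher. The myosin chains and titin, a list of 15 thick filament genes that were all detected, had a median of 0.09, with 8 of 15 higher in replicate 2, a share near that of all genes. With spike-in scaling their median was -0.06, with 6 of 15 higher. Mybpc3, at a mean of 22.5 counts, had a log2 ratio of -1.07, with a counting interval of -2.07 to -0.13. Mybphl, at a mean of 1.5 counts, was too low to compare. Among the other genes of the 9, which averaged 10 counts or more, Mybpc3 alone was over 2-fold apart, beside 3.75% of all such genes. The log2 ratio of Mybpc3 was -0.83 in the other quantification.

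**Figure D5:**
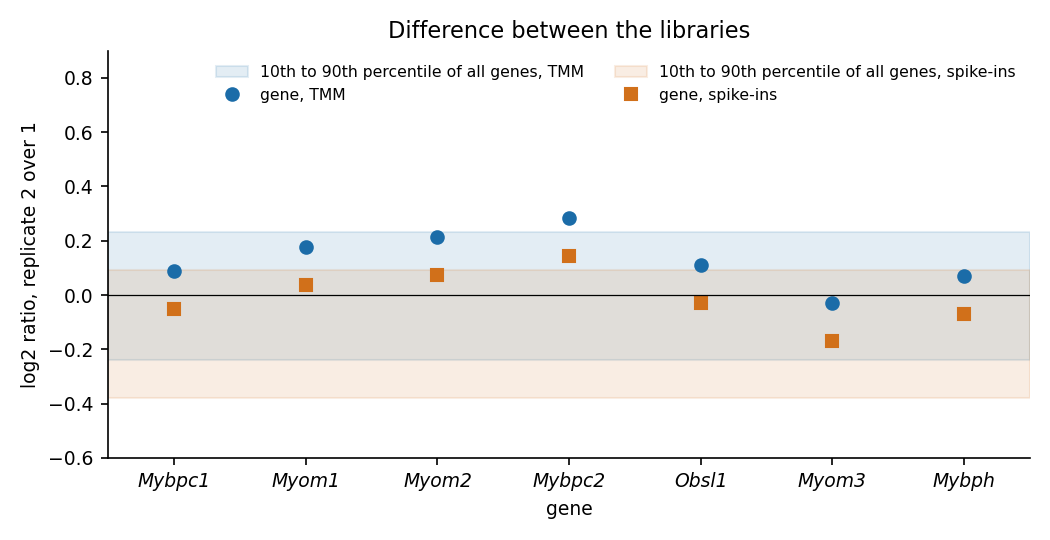
Log2 ratio of replicate 2 over replicate 1 for the 7 genes that averaged 100 counts or more, with circles for TMM scaling and squares for spike-in scaling. The bands mark the 10th to 90th percentile of all genes under each scaling. Mybpc2 lies above both bands at 0.28 and 0.14, and the other genes lie inside their bands.

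Markers of the muscle and of other tissues and cells were compared between the same libraries. The 6 skeletal muscle markers were all detected at a median of 4035 TPM, and summed to 28880 TPM (replicate 2) and 24305 TPM (replicate 1). The summed level of the 4 tendon markers was 110 TPM in replicate 2 and 214 TPM in replicate 1. That of the 3 red cell markers was 227 and 1219 TPM, that of the 3 bone markers 0.61 and 14.3 TPM and that of the 3 liver markers 74.6 and 6.95 TPM in replicates 2 and 1. The 4 smooth muscle markers summed to 265 TPM in replicate 2 and 261 TPM in replicate 1. The part of these differences in the ratios of the 9 genes was not tested.

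The start regions of the genes were searched for 3 muscle promoter motifs. RefSeq promoters (GRCm38.p6, windows of 300 bases with 50 after the start) were found for 8 of the 9 genes, not Myom2, and matches on either strand were counted once, without removing overlaps between motifs. The E-box CANNTG occurred in 8 of the 8, beside 72.3% of 32851 promoters. The MCAT element CATTCC occurred in those of Mybpc2 and Mybph, beside 14.7% of promoters, and the MEF2 motif in those of Mybpc3 and Myom3, beside 3.19%. Mybpc1 and Myom1, the highest of the genes, had 3 E-boxes each and neither of the other motifs in this window. Mybpc3, which was not detected, also had 3 E-boxes. Obsl1 had 4, Mybpc2 had 2, and Mybph, Mybphl and Myom3 had 1 each.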

How the data were processed

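The deposited main tables give expected counts (rounded here for ratios) and TPM per gene and per transcript. A separate deposited transcript quantification, called the other quantification, gives estimated counts and TPM, summed per gene. Per the labels the build was mm10, and per the notes deposited beside the tables the annotation was GENCODE M21. No label or header used here names the aligner, the quantification programs or the strand setting. This reference is of C57BL/6J, also for reads from CAST/EiJ alleles. The labels call the libraries biological replicates, but both carry 1 donor record.

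Symbols came from the other quantification's transcript names, joined by gene ID. Exon use is the TPM of protein-coding transcripts that hold an exon over those that hold or skip it. Ratios came from edgeR 4.0.16 (R 4.3.3), with TMM factors over genes averaging 10 counts or more and a prior count of 2, and were tested on simulated data. DESeq2 1.42.0 size factors were an alternative. Coding sequences were aligned with Biopython 1.88. Named transcripts had at least 5% of the gene TPM in either quantification. Members, lists and rules were chosen with earlier results of these data known. A gene of the M-band partner list is not reported here. No protein table was used, so proteins were not compared.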

Additional observations from a re-analysis of the deposited data

How the results depend on the processing

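A share counted as moved when it shifted by more than the SD between the libraries, and a number of genes when it changed by more than 1.5 times. Leaving out either of 2 libraries cannot shift a mean by that SD, so those ranges say nothing of stability. For the family shares, the EH and 42-base exons and the gene numbers, 15 alternatives moved and 39 did not. The 39 include those that left out a library. The Myom1 and Myom2 shares moved by expected counts, in the other quantification and with protein-coding transcripts alone. The other moved values are also among those given below. None of the alternatives run changed the order Mybpc1 over Mybpc2 over Mybpc3 or Myom1 over Myom2 over Myom3. By expected counts the shares were 79.3% for Mybpc1, 20.7% for Mybpc2, 50.5% for Myom1, 41.0% for Myom2 and 8.49% for Myom3. In the other quantification they were 52.1% for Myom1 and 40.4% for Myom2. With protein-coding transcripts alone, an alternative chosen after seeing the data, they were 78.99% for Mybpc1, 20.99% for Mybpc2, 48.3% for Myom1 and 43.9% for Myom2. The share of the EH exon was 2.94% in the other quantification and 3.98% over all transcripts (5.59% there in the other quantification), and that of the 42-base exon of Mybpc1 was 78.8% in the other quantification. With either replicate left out, the shares ranged from 81.2% to 83.3% for Mybpc1, 16.7% to 18.8% for Mybpc2, 0.0106% to 0.0247% for Mybpc3, 55.3% to 55.6% for Myom1, 37.0% to 37.8% for Myom2, 6.69% to 7.72% for Myom3 and 99.8% to 99.9% for Mybph, the EH exon from 0.773% to 1.31% and the 42-base exon from 74.9% to 77.0%. The number of detected genes stayed at 7 with either replicate left out, at 0.5 or 5 TPM and in the other quantification, and all 9 had reads in both libraries. Of the 9 genes, all but Mybphl averaged 10 counts or more. Among these, 1, Mybpc3, was over 2-fold apart, and 0 were with a prior count of 5 or in the other quantification. In the other quantification levels were 1.33-fold to 1.81-fold those of the main tables. The causes were not tested. Depth limits Mybpc3 and Mybphl. No paired analysis was possible because the series holds 1 group.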

Other observations

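Family sums kept close proportions in both libraries. The 9 sarcomeric myosin heavy chain genes summed to 5540 and 6218 TPM in replicates 1 and 2, the 3 myosin binding protein C genes to 1052 and 1135 TPM and the 3 myomesin genes to 571 and 644 TPM. The heavy chain sum was 5.26-fold and 5.48-fold that of the binding protein genes, and 9.70-fold and 9.66-fold that of the myomesin genes. These are ratios of transcript abundance, not of protein, and were not set beside sums of other genes. The sums include noncoding transcripts, on which the quantifications differ. Myom1-208 took 31.1% of Myom1 TPM in the main tables and 3.53% in the other quantification. The ratios were not computed with protein-coding transcripts alone.

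Of 10 genes for kinases known to phosphorylate myosin binding protein C, or closely related to them, all 10 were detected at a median of 32.8 TPM. The highest was Prkaca, a catalytic subunit of protein kinase A, at 325 ± 26.8 TPM. The calmodulin-dependent kinase genes Camk2a and Camk2b reached 74.5 ± 8.03 and 72.3 ± 6.39 TPM, and the lowest was protein kinase D1 (Prkd1) at 4.37 ± 0.212 TPM.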
